A study of Mus musculus with 12 samples.

Results

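The difference between the tamoxifen response of the anterior and of the posterior palatal shelf was measured over 15958 genes, in all 12 RNA-seq libraries of the series. For each gene it is the log2 fold change under tamoxifen in the anterior part minus the same change in the posterior part, so a positive value means that the gene moved further upward, or less far downward, in the anterior part. The genes were not chosen by their values: all 24391 gene symbols of the files entered, and 15958 had enough counts to be tested. The tissue came from C57BL/6 mouse embryos at E13.5, and the libraries form 4 groups of 3: anterior palate of controls (con_AP) and of tamoxifen-treated mice (TAM_AP), and posterior palate of controls (con_PP) and of tamoxifen-treated mice (TAM_PP). The labels give the tissue, the strain and the age, and show the treatment in the title. The dose, the route and the day of treatment, what the controls received, and whether a library came from 1 embryo or several are not stated there. The p-values therefore measure the spread between these libraries, which may be technical in part.

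The palatal shelves grow out from the maxillary processes on either side of the tongue, and later lift above it, meet and fuse into the roof of the mouth. Their anterior and posterior parts are built by mesenchyme of different transcription factor programmes, with Shox2 and Msx1 used in the anterior and Meox2, Tbx22 and Barx1 in the posterior part, and both exchange Hedgehog, Wnt, BMP and FGF signals with the overlying epithelium. Tamoxifen is an oestrogen receptor modulator that also binds enzymes of late cholesterol synthesis, and cleft palate is the outcome that the series title gives for it. The 4 groups allow the question of which genes respond differently at the front and at the back of the shelf.

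The parts carried the regional genes their labels call for. Levels are given in TMM-scaled CPM, which are counts relative to the scaled library total. Shox2 stood at 304 to 359.7 CPM in the con_AP and 376 to 579 CPM in the TAM_AP libraries, against 16.5 to 19.8 and 12.7 to 22.9 CPM in con_PP and TAM_PP, while Meox2 stood at 5.34 to 9.51 and 8.12 to 9.77 CPM in the anterior against 121 to 139 and 125 to 142 CPM in the posterior libraries. The palatal mesenchyme gene Osr2 was present at 218 to 236, 162 to 188, 148 to 157 and 116 to 147 CPM in the 4 groups, in this order. Library totals were 39384932 to 43316201 counts in con_AP, 44392938 to 73017438 in TAM_AP, 42217556 to 48836027 in con_PP and 45885288 to 50163320 in TAM_PP. Skeletal muscle markers summed to 30.4 to 60.4 CPM in con_AP, 24.7 to 48.5 in TAM_AP, 1070.2 to 1237 in con_PP and 1312 to 1792 in TAM_PP, so muscle RNA was a feature of the posterior libraries and was highest in those from tamoxifen-treated mice. In bulk tissue, fewer cells of a type and less RNA per cell cannot be told apart.

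Most of the response to tamoxifen had the same direction in both parts and was larger in the anterior one. With edgeR's quasi-likelihood test and a Benjamini-Hochberg adjusted p under 0.05 as the call, 7924 genes (49.7% of those tested) were called under tamoxifen in the anterior part, 4089 higher and 3835 lower, and 4625 (29%) in the posterior part, 2762 higher and 1863 lower. The posterior count rests on few libraries, since it was 2714 without replicate 1 of con_PP, 2830 without replicate 3 of con_PP and 3045 without replicate 1 of TAM_PP. By direction, 25.6% of the genes tested were called higher and 24% lower in the anterior part, and 17.3% and 11.7% in the posterior part. These shares are the background for the numbers of list members said below to have risen or fallen within a part. Of the genes called in both parts, 4154 moved in the same direction and 15 in opposite directions. Among the 4154, 3668 had the larger fold change in the anterior part, and the median size of the change was 0.58 on the log2 scale there and 0.40 in the posterior part. A further 3755 genes were called in the anterior part alone, of which 3512 had the same sign in the posterior part, and 456 in the posterior part alone. Across all genes tested the 2 fold changes had a Spearman correlation of 0.74, given here as a description, since genes of 1 set of libraries are not independent.

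For the difference itself, no gene was called. The edgeR test gave 0 of 15958 genes at an adjusted p under 0.05 (0%), and the smallest adjusted p was 0.081. At an unadjusted p under 0.05 there were 2110 genes (13.2%), 1151 with a positive difference (7.21%) and 959 with a negative one (6.01%). These percentages are the background for the counts of list members with a positive or negative difference below. Counts with a length and GC trend removed have their own background, given with that trend. The DESeq2 Wald test called 179 genes (1.12%), 96 positive and 83 negative, and limma-voom called 0. At an adjusted p under 0.10, a threshold added after the data were seen, edgeR called 8 genes (0.0501%), 1 positive (Wnt5a) and 7 negative (Cthrc1, Foxc2, Naaa, Spock1, Trim72, Sfrp5 and Tfap2b). Leaving out single libraries moved the edgeR count at 0.05 from 0 to 6 without replicate 3 of TAM_AP, to 3 without replicate 2 of TAM_AP, and to 1 without replicate 1 of con_PP or replicate 3 of TAM_PP, all of them negative. The unadjusted positive count was 724 without replicate 3 of con_AP and 697 without replicate 2 of con_PP, and the unadjusted negative count 627 without replicate 2 of TAM_AP and 573 without replicate 2 of con_PP. For that reason the differences below are given as estimates with 95% confidence intervals, and the words rose and fell are used for called fold changes within a part. Within each list the member with the smallest p was named by rule, and the other members were chosen after their values were seen.

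The precision of the difference set what could be seen. Its median standard error (SE) was 0.160 on the log2 scale, and the 95% interval reached a median of 0.34 to either side. For 8525 genes (53.4%) the interval lay within 1.5-fold either way, and for 11996 (75.2%) within 2-fold either way. A difference of more than 2-fold was estimated for 675 genes, but only 78 of them reached a mean of 5 CPM in any group, and 67 of these 78 had an unadjusted p under 0.05.

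**Figure D1:**
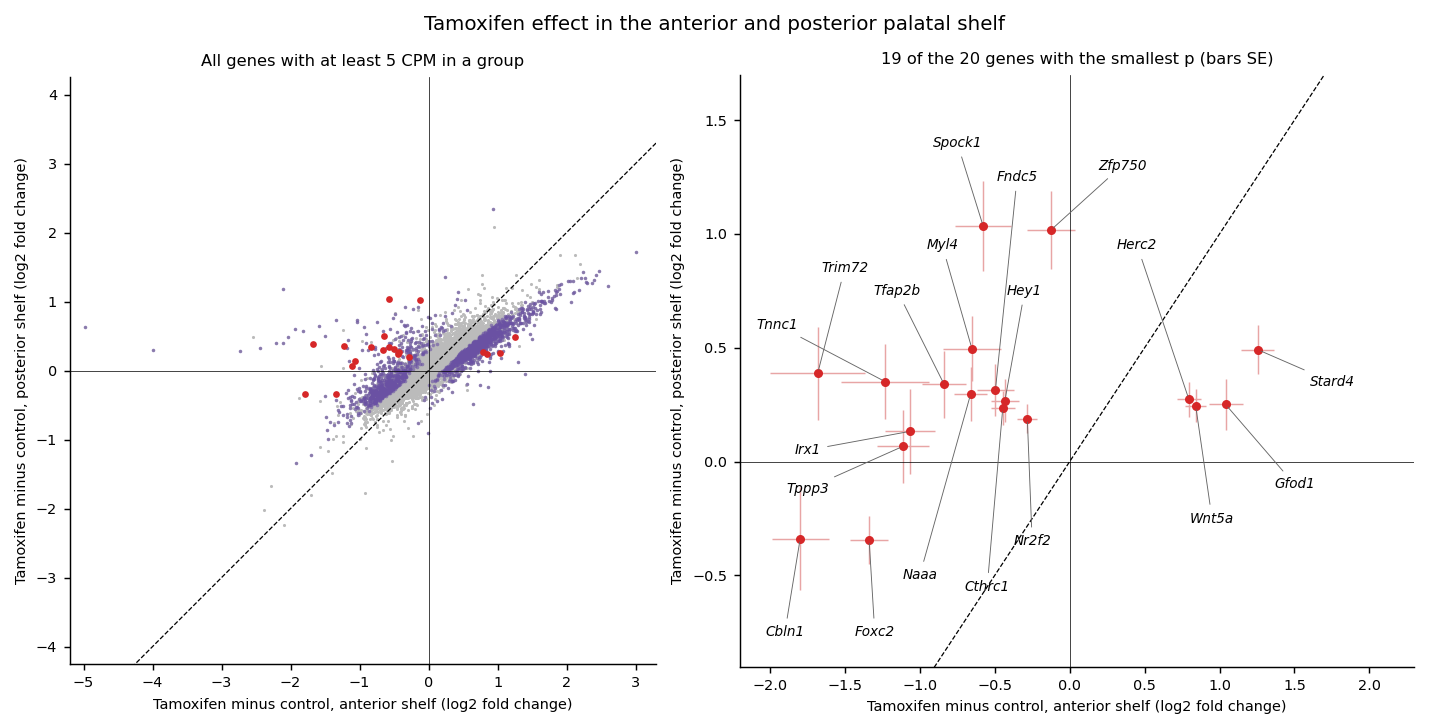
Tamoxifen minus control in the anterior part (x axis, log2 fold change) against the posterior part (y axis, log2 fold change); the dashed line marks equal change. Left, the 11964 genes with a mean of at least 5 CPM in a group, with the 1834 at an unadjusted p under 0.05 for the difference in violet and the 20 with the smallest p in red; right, 19 of those 20 with SE bars, 15 of them left of the dashed line and 4 (Wnt5a, Stard4, Gfod1 and Herc2) right of it.

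The size of the response, and of its difference between the parts, followed the length and the GC content of the transcripts. Among the 13045 genes of known length whose log2 CPM averaged over 1, from the quartile with the shortest to that with the longest transcripts, the median fold change under tamoxifen went from -0.32 to 0.45 in the anterior and from -0.19 to 0.29 in the posterior part, and the median difference from -0.12 to 0.16. Of the longest quartile 23.0% had a positive difference at an unadjusted p under 0.05, and of the shortest quartile 0.83%. By GC content the order was the reverse, with 15.4% of the quartile with the lowest and 0.83% of the quartile with the highest GC content positive. Within libraries, the rank correlation of length with expression (each gene centred on its own average) was -0.59 to -0.45 in con_AP, -0.33 to -0.22 in con_PP, 0.35 to 0.44 in TAM_AP and 0.41 to 0.46 in TAM_PP, so the control libraries of the parts differed from each other by more than the tamoxifen libraries did. With a smooth trend of length and GC content removed from each library, edgeR again called 0 genes, and 1838 (11.6%) had an unadjusted p under 0.05. Of the 15849 genes in that fit, 1197 were positive and 641 negative at this level. They are the background for the trend-removed counts of list members below. Whether the trend belongs to the tissue or to the libraries was not tested. Of 117 named genes with both values, 35 had a difference that moved by more than 1.5 times or changed sign with the trend removed. Trend-removed values are given below for many of these and for the list counts and medians that moved, and a value given without one is not thereby shown to be stable. The median over all genes moved from -0.0094 to 0.03.

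**Figure D2:**
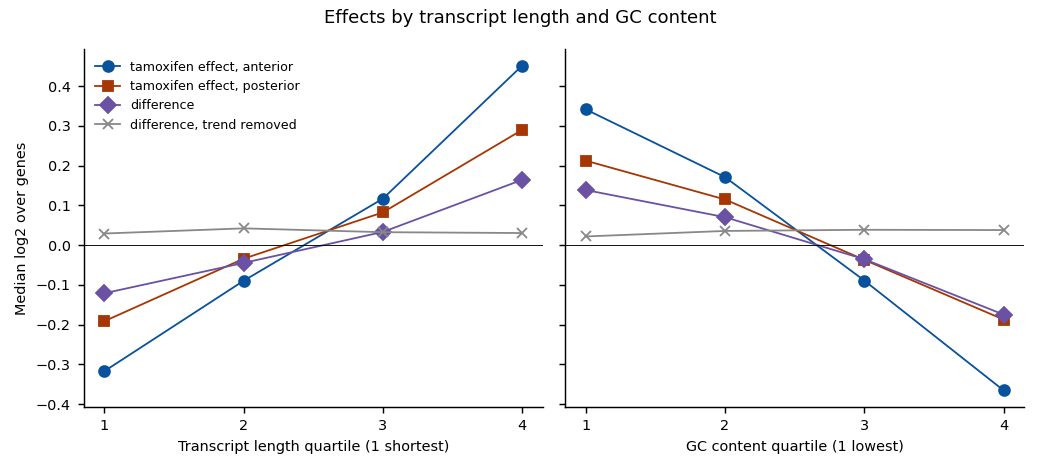
Median log2 fold change under tamoxifen in each part, and the median difference between the parts with and without removal of the trend (y axis), for quartiles of the genes by transcript length (left) and GC content (right). The anterior line is the steepest in both panels, the difference runs from -0.12 to 0.16 over length, and it lies near 0.03 in every length quartile with the trend removed.

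The 4 genes with a positive difference among the 20 with the smallest p were Wnt5a, Stard4, Gfod1 and Herc2. Wnt5a encodes a secreted ligand of non-canonical Wnt signalling that guides cell movements in the shelf. Its level was 137, 146 and 130.2 CPM in the con_AP libraries and 244, 251 and 246 CPM in TAM_AP, and 70.0, 68.5 and 64.6 CPM in con_PP and 73.4, 82.0 and 85.4 CPM in TAM_PP. All tamoxifen values lay above all control values in both parts, but by much more in the anterior one. There Wnt5a rose 1.79-fold (edgeR adjusted p = 1.1e-06), and in the posterior part 1.18-fold (edgeR adjusted p = 0.020). The difference was 0.60 (SE 0.10, 95% interval 0.38 to 0.81, edgeR adjusted p = 0.081), and the anterior level went from 2.04 to 3.08 times the posterior one. With the length and GC trend removed, the difference was 0.41. The log2 fold change of Wnt5a was then 0.32 in the anterior part and -0.09, without a call, in the posterior part (edgeR adjusted p = 0.0010 and 0.38).

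Stard4, a carrier that moves cholesterol between membranes, was measured at 15.4, 15.5 and 13.3 CPM in con_AP and 34.1, 38.5 and 32.9 CPM in TAM_AP, and at 19.5, 25.2 and 23.6 CPM in con_PP and 35.3, 31.2 and 29.4 CPM in TAM_PP. It rose 2.39-fold in the anterior and 1.41-fold in the posterior part (edgeR adjusted p = 1.3e-06 and 0.0043). The order of the parts in controls, with the posterior level 1.54 times the anterior one, was thus no longer seen under tamoxifen, where the values of the parts overlapped. The difference was 0.76 (SE 0.15, edgeR adjusted p = 0.16). Gfod1 went from 10.2, 12.8 and 11.8 to 26.3, 23.6 and 21.7 CPM in the anterior part and from 13.8, 15.1 and 16.3 to 16.9, 17.0 and 19.97 CPM in the posterior part. Its anterior rise of 2.06-fold was called, its posterior change was not (edgeR adjusted p = 0.11), and the difference was 0.79 (SE 0.16). Herc2, a very large ubiquitin ligase, rose 1.74-fold and 1.21-fold, with a difference of 0.52 that was 0.33 with the length and GC trend removed.

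The other 16 of the 20 had a negative difference, and of these 15, all but Zfp750, fell in the anterior part. Cthrc1, a secreted collagen-like protein of non-canonical Wnt signalling, had the smallest p of all genes. It was measured at 19.7, 19.3 and 18.1 CPM in con_AP and 13.6, 13.4 and 14.99 CPM in TAM_AP, but at 54.9, 60.5 and 63.0 CPM in con_PP and 71.8, 68.8 and 69.3 CPM in TAM_PP. The groups overlapped in neither part. Cthrc1 fell to 0.734 of control in the anterior part and rose 1.18-fold in the posterior part (edgeR adjusted p = 0.00025 and 0.028), a difference of -0.68 (SE 0.11, 95% interval -0.91 to -0.45, edgeR adjusted p = 0.081). The posterior excess over the anterior level went from 3.12-fold to 5.001-fold.

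Foxc2, a forkhead factor of mesenchyme and lymphatic vessels, is a posterior gene here, with 8.45, 7.57 and 8.36 CPM in con_AP against 63.8, 48.0 and 66.2 CPM in con_PP. Under tamoxifen it stood at 3.17, 3.22 and 3.26 CPM in the anterior and 42.0, 50.1 and 48.2 CPM in the posterior part. It fell in both, to 0.396 and 0.788 of control (edgeR adjusted p = 1.7e-06 and 0.025), although the posterior groups overlapped. The difference was -0.99 (SE 0.17, edgeR adjusted p = 0.081). Naaa, a lysosomal amidase that breaks down acylethanolamides, showed the opposite regional bias. Its level was 14.9, 13.2 and 15.6 CPM in con_AP and 9.63, 8.80 and 9.18 CPM in TAM_AP, and 4.69, 4.37 and 4.60 CPM in con_PP and 5.74, 5.17 and 5.87 CPM in TAM_PP. The anterior fall to 0.633 of control was called and the posterior change was not (edgeR adjusted p = 0.071), so that the anterior excess of 3.20-fold in controls stood at 1.65-fold under tamoxifen, with a difference of -0.96 (SE 0.16).

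Spock1, a secreted proteoglycan, had the largest posterior rise of the 20. Its values were 16.9, 16.7 and 23.3 CPM in con_AP and 11.8, 11.1 and 15.4 CPM in TAM_AP, against 5.41, 4.73 and 4.97 CPM in con_PP and 13.6, 9.80 and 7.54 CPM in TAM_PP. It fell to 0.670 of control in the anterior part and rose 2.05-fold in the posterior part, where the 3 tamoxifen libraries spread widely but all lay above the controls. The difference was -1.61 (SE 0.27, 95% interval -2.19 to -1.03), and the anterior excess was 3.77-fold in controls and 1.23-fold under tamoxifen. Zfp750, a transcription factor of epidermal differentiation, had no anterior call (6.81, 6.89 and 7.59 CPM in con_AP, 7.09, 6.16 and 6.26 CPM in TAM_AP) but rose 2.02-fold in the posterior part, from 2.06, 2.03 and 2.55 to 4.86, 3.42 and 5.18 CPM. Its difference was -1.14 (SE 0.24). Epithelial markers summed to 1803 to 2253 CPM in con_AP, 1874 to 2334 in TAM_AP, 1168 to 1275 in con_PP and 1277 to 1666 in TAM_PP, and their part in the values of Zfp750 was not tested.

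Several of the 16 are transcription factors. Tfap2b, an AP-2 factor of neural crest, was measured at 86.3, 90.7 and 87.4 CPM in con_AP and 39.6, 45.1 and 63.4 CPM in TAM_AP, against 33.8, 27.4 and 36.1 CPM in con_PP and 45.9, 39.9 and 37.3 CPM in TAM_PP. The anterior level was 2.72 times the posterior one in controls and 1.20 times under tamoxifen, and the difference was -1.18 (SE 0.21, edgeR adjusted p = 0.096). Replicate 3 of TAM_AP was the highest of its group for Tfap2b, and without it the difference was -1.38 with an edgeR adjusted p of 0.0015. Over the fits without 1 library the difference of Tfap2b ranged from -1.38 to -1.02, and only that fit called it. Irx1, an Iroquois homeobox gene, fell from 35.05, 46.9 and 47.6 to 20.6, 17.2 and 24.1 CPM in the anterior part, and its posterior values of 5.62, 4.11 and 5.95 and 6.54, 4.36 and 6.31 CPM overlapped. Hey1, a repressor that Notch signalling switches on, and Nr2f2, the orphan nuclear receptor COUP-TFII, fell in the anterior and rose in the posterior part. Hey1 had 30.6, 35.3 and 35.5 CPM in con_AP and 25.5, 25.4 and 24.2 in TAM_AP, then 12.3, 11.98 and 12.99 in con_PP and 16.3, 13.4 and 15.3 in TAM_PP. For Nr2f2 the values were 71.1, 72.6 and 76.0 CPM in con_AP and 60.5, 59.1 and 61.0 in TAM_AP, then 133, 135 and 142 in con_PP and 156, 165 and 147 in TAM_PP. Their differences were -0.70 (SE 0.13) and -0.47 (SE 0.09), with no overlap between treated and control libraries in either part.

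Cbln1 and Tppp3 fell in the anterior part and had no call in the posterior part. Cbln1, a secreted organiser of synapses, fell from 22.2, 24.7 and 27.4 to 5.63, 9.67 and 6.17 CPM in the anterior part and read 2.46, 2.27 and 2.82 and 2.42, 1.403 and 2.14 CPM in con_PP and TAM_PP. Tppp3, a tubulin-binding protein, fell to 0.463 of control in the anterior part, with posterior values of 18.4, 14.3 and 15.8 CPM in con_PP and 16.3, 18.3 and 16.1 CPM in TAM_PP. The differences were -1.46 (SE 0.30) and -1.18 (SE 0.23). A further 4 are genes of muscle: the membrane repair protein Trim72 (-2.07), the troponin Tnnc1 (-1.58), the myosin light chain Myl4 (-1.149) and Fndc5 (-0.81), the precursor of irisin. Their anterior levels were low, with 0.743 to 1.03 CPM of Trim72 and 1.03 to 2.23 CPM of Tnnc1 in con_AP, and they are described with the muscle markers below. All 20 genes were called by DESeq2, with adjusted p between 7.3e-05 and 0.0053, and none by limma-voom.

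**Figure D3:**
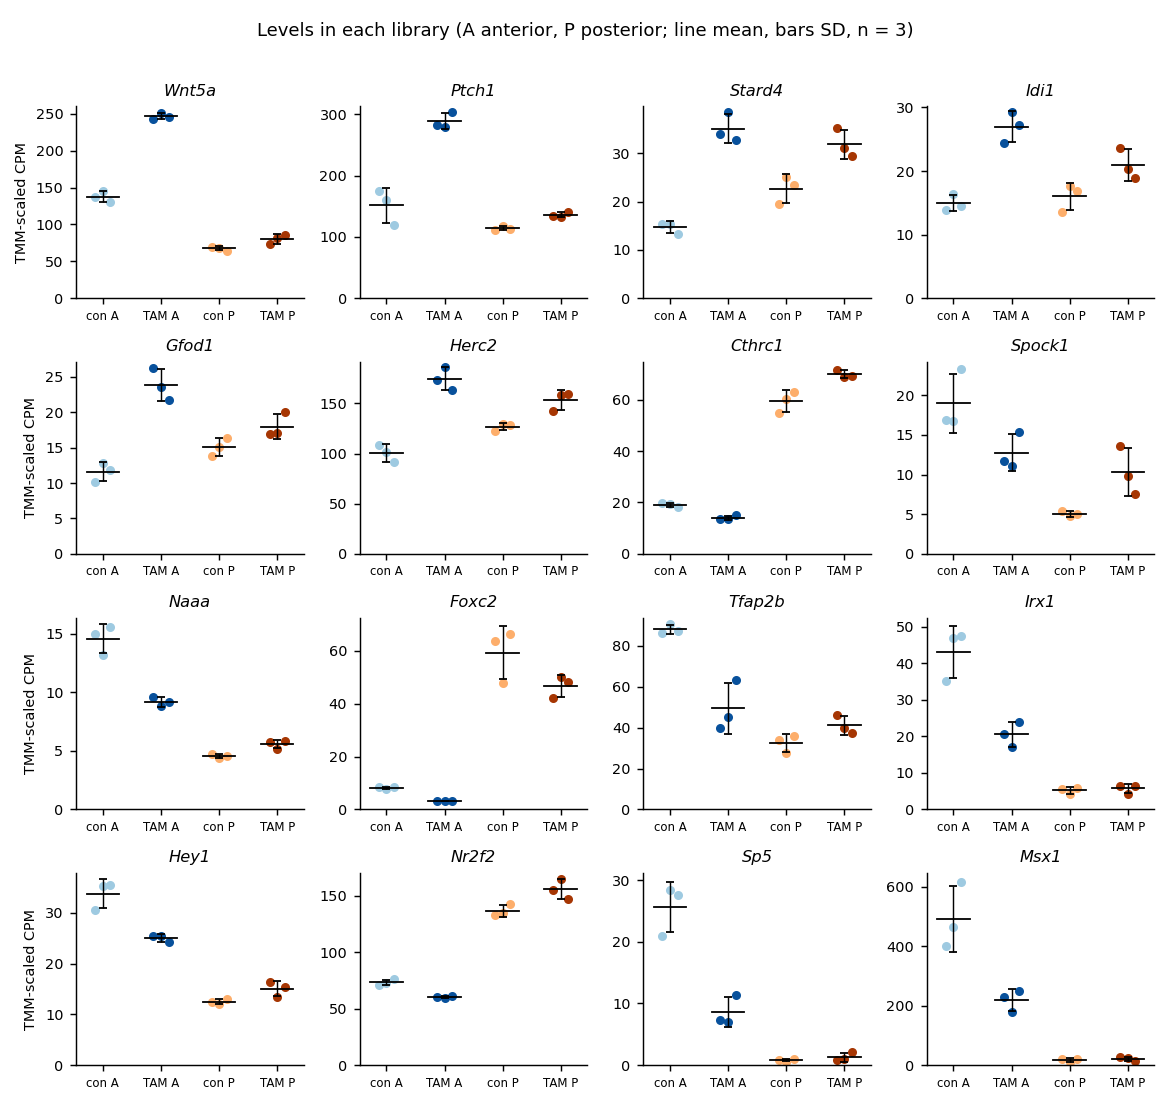
Levels of 16 genes in each library (y axis, TMM-scaled CPM from 0; x axis, control and tamoxifen libraries of the anterior, A, and posterior, P, part); points are libraries, lines the mean and bars the SD of 3 libraries. Wnt5a, Ptch1, Stard4, Idi1, Gfod1 and Herc2 have the larger step in the anterior part, and in the panels from Cthrc1 to Msx1 the anterior libraries step downward.

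The 15 genes called in opposite directions all fell in the anterior and rose in the posterior part, and none did the reverse. They were picked by these calls, so their differences are negative by construction and are given as a description. They include Cthrc1, Spock1, Sfrp5, Hey1, Nr2f2, Myl4, Fndc5, Myom3, Sox10, Fap, Mstn, Acta2, Myom2 and Heyl. By known role they include the Notch targets Hey1 and Heyl, genes of striated muscle (Myl4, Fndc5, Myom2, Myom3 and the growth inhibitor of muscle Mstn), smooth muscle actin Acta2, the glial factor Sox10, the fibroblast protease Fap and the secreted Wnt antagonist Sfrp5. Heyl went from 26.8, 23.2 and 25.1 to 21.5, 18.1 and 21.2 CPM in the anterior and from 15.3, 11.9 and 12.1 to 16.3, 17.6 and 15.8 CPM in the posterior part. Fap went from 12.4, 12.4 and 10.02 to 8.78, 8.77 and 9.85 CPM and from 5.32, 4.87 and 5.596 to 8.58, 6.51 and 7.03 CPM. The values of Sox10, a gene of Schwann cell precursors, were closer together, at 27.6, 28.2 and 29.5 CPM in con_AP, 22.9, 23.1 and 25.1 in TAM_AP, 26.9, 22.3 and 23.2 in con_PP and 28.5, 29.2 and 29.2 in TAM_PP. Several of the 15 rest on few counts: Sfrp5 lay at 0.714 to 0.985 CPM in TAM_AP and 1.249 to 2.09 CPM in TAM_PP, and Mstn was at 0 in all 3 TAM_AP libraries and at 0.0468 to 0.0495 CPM in con_AP. The count depends on single libraries, being 3 without replicate 2 of con_PP, 4 without replicate 3 of con_PP, 4 without replicate 1 of TAM_PP and between 7 and 17 without any other library. It also depends on the length and GC trend, and was 9 with the trend removed. Sox10 then rose in both parts, by 0.32 in the anterior and 0.54 in the posterior part on the log2 scale. The anterior changes of Hey1 and Acta2 were then not called (edgeR adjusted p = 0.12 and 0.17). By levels alone, 52 genes (0.326% of those tested) had all 3 tamoxifen values above all 3 controls in 1 part and below them in the other.

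Among Hedgehog genes the smallest p belonged to the receptor gene Ptch1. Shh, the ligand made by the oral epithelium, had 22.0, 23.4 and 17.1 CPM in con_AP, 29.8, 27.0 and 19.3 in TAM_AP, 11.4, 8.88 and 10.7 in con_PP and 15.5, 10.1 and 12.2 in TAM_PP. Its tamoxifen mean was 1.22 times control in both parts, without a call, and the 95% interval of the difference ran from -0.53 to 0.54. Ptch1, the receptor and itself a target of the pathway, read 175, 160.1 and 119 CPM in con_AP and 283, 279 and 303 CPM in TAM_AP, and 112, 117 and 113 CPM in con_PP and 134, 133 and 141 CPM in TAM_PP. The tamoxifen values lay above the controls in both parts, with a called rise of 1.905-fold in the anterior part and an uncalled 1.19-fold in the posterior part (edgeR adjusted p = 0.077). The difference of 0.68 (SE 0.14, 95% interval 0.37 to 0.99) had an edgeR adjusted p of 0.17. With the length and GC trend removed, the difference was 0.47. The log2 fold change of Ptch1 was then 0.33 in the anterior part and -0.14, without a call, in the posterior part (edgeR adjusted p = 0.0010 and 0.14). Of 16 tested members of the pathway list, Ptch1 was the only one with a positive difference at an unadjusted p under 0.05, and the co-receptor gene Gas1 (-0.41) the only one with a negative difference. The median over the list was 0.0073, and over all genes -0.0094. With the trend removed 2 members were positive and 0 negative, with a median of 0.11.

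Wnt genes differed in both directions. Of 50 members, 5 had a positive and 7 a negative difference at an unadjusted p under 0.05, with a list median of -0.07. With the trend removed the counts were 6 and 5 and the median 0.03. Beside Wnt5a, the positive ones were the receptors Fzd4 (0.59), Lgr5 (0.37) and Lrp6 (0.28) and the low-expressed agonist Rspo4. The negative ones were the ligands Wnt6 (-0.56), Wnt9b (-1.46) and Wnt11 (-0.36), the antagonists Sfrp5 and Sostdc1 (-0.37), and the nuclear effector Lef1 and the target Sp5. Sp5 encodes a transcription factor that canonical Wnt signalling induces. It fell from 21.0, 28.3 and 27.5 CPM in con_AP to 7.35, 6.92 and 11.3 CPM in TAM_AP and read 0.883, 0.549 and 0.974 CPM in con_PP and 0.781, 0.914 and 2.14 CPM in TAM_PP. Its difference was -2.23 (SE 0.47, 95% interval -3.25 to -1.22), and the posterior libraries were all at or below 2.14 CPM. Lef1, the DNA-binding partner of beta-catenin, fell to 0.701 of control in the anterior part, from 55.6, 64.8 and 65.8 to 43.4, 32.1 and 55.1 CPM, and its posterior values of 19.1, 16.5 and 18.7 and 20.4, 18.5 and 20.7 CPM gave no call.

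The genes that mark the anterior part did not share 1 pattern. Of the 18 on the list, 1 had a positive and 4 a negative difference at an unadjusted p under 0.05, and the median was 0.04. Removal of the trend left 2 positive and 4 negative, with a median of 0.02. Msx1, a homeobox gene of the palate and the teeth, fell from 399, 464 and 615 CPM in con_AP to 229, 177 and 249 CPM in TAM_AP, and its posterior levels of 20.4, 9.72 and 20.2 CPM in con_PP and 26.6, 22.9 and 13.47 CPM in TAM_PP overlapped. The difference was -1.496 (SE 0.47, 95% interval -2.55 to -0.44, unadjusted p = 0.011), and the anterior excess went from 29.2-fold to 10.4-fold. Its relative Msx2 fell to 0.567 of control in the anterior part, with a difference of -0.56 (SE 0.20). For Shox2 the anterior values of 304, 359.7 and 331 CPM in con_AP and 404, 579 and 376 CPM in TAM_AP did not overlap, but the rise missed the call (edgeR adjusted p = 0.076) and the interval of the difference ran from -0.13 to 1.12. Bmp4 (-0.24, SE 0.14, -0.11 with the trend removed) and Fgf10 (0.26, SE 0.22, 0.13 with the trend removed), a BMP and an FGF ligand, had intervals that included 0, though Bmp4 fell and Fgf10 rose in the anterior part.

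Genes that mark the posterior part also differed in both directions. Of the 13 on the list, 1 was positive (Col25a1, 0.54) and 2 were negative at an unadjusted p under 0.05, with a median of 0.10. Removal of the trend left 3 positive and 1 negative, with a median of 0.19. Barx1, a homeobox gene, fell in both parts, from 379.7, 374 and 444 to 227, 264 and 225 CPM in the anterior and from 995, 862 and 1080.4 to 635, 801 and 788 CPM in the posterior part. Its difference of -0.34 (SE 0.15) became 0.09 with the length and GC trend removed, so no direction is given for Barx1. Emx2, a homeobox gene of the posterior libraries, read 0.411 to 0.679 CPM in con_AP and 0.269 to 0.445 CPM in TAM_AP, and 7.49, 7.31 and 6.94 CPM in con_PP and 9.57, 10.3 and 8.57 CPM in TAM_PP, with a difference of -0.94 (SE 0.30). Meox2 (0.39, 95% interval -0.09 to 0.87), Tbx22 (0.21, -0.55 to 0.97) and Mn1 (0.08, -0.23 to 0.39) had intervals on both sides of 0. Without replicate 1 of con_AP, the highest of its group for Meox2, the Meox2 difference was 0.74, and over the fits without 1 library it ranged from 0.24 to 0.74 (smallest edgeR adjusted p 0.069). The difference of Tbx22, mutated in X-linked clefting of the palate, was 0.0050 with the trend removed, and that of Mn1 was 0.19.

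Palatal mesenchyme regulators outside the 2 regional lists leaned to the negative side. Some of them, such as Foxf1 and Tfap2b, were themselves higher in the anterior part of controls. Of 33 tested, 8 had a negative and 0 a positive difference at an unadjusted p under 0.05, with a median of -0.16 (-0.06 with the trend removed, when 3 were positive and 7 negative). In the anterior part 7 of the 33 rose and 15 fell, and in the posterior part 7 rose and 4 fell. Over all genes tested, 25.6% rose and 24% fell in the anterior part, and 17.3% rose and 11.7% fell in the posterior part. Foxf1, a forkhead target of Hedgehog signalling, fell from 224, 232 and 256 to 154, 163 and 190.4 CPM in the anterior part, whereas its posterior values of 64.9, 59.4 and 64.1 and 62.5, 67.5 and 65.6 CPM overlapped, with a difference of -0.54 (SE 0.12). The coactivator Cited1 fell to 0.354 of control, from 20.9, 21.8 and 30.9 to 7.83, 7.88 and 10.4 CPM, and had a difference of -1.13 (SE 0.25). The Distal-less genes Dlx2 (-0.69, -0.43 with the trend removed), Dlx5 (-0.65) and Dlx6 (-0.97) and the homeobox gene Six2 (-0.49) were on the same side. For Six2, the most abundant of these, levels went from 1006, 1098 and 1239 to 706, 872 and 708 CPM in the anterior part and from 675, 544 and 631 to 518, 689 and 566 CPM in the posterior part, and the difference was -0.15 with the trend removed. Osr2, whose loss causes cleft palate, fell to 0.766 of control in the anterior part and had a difference of -0.21 (-0.06 with the trend removed) with an interval from -0.48 to 0.05.

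Most tooth germ markers are also on the lists above: Msx1, Msx2, Pax9, Barx1, Lhx6, Lhx8, Shh, Dkk1, Lef1, Wnt10a, Wnt10b and Sostdc1. Tooth germ markers had 7 negative and 0 positive differences among 17 (median -0.37, -0.12 with the trend removed). Their summed level was 1669 to 2012 CPM in con_AP and 1246 to 1309 in TAM_AP, and 1482 to 1738 in con_PP and 1296 to 1516 in TAM_PP. Edar, the ectodysplasin receptor of tooth and hair placodes, had 3.74, 3.36 and 3.16 CPM in con_AP and 2.99, 2.57 and 3.04 in TAM_AP, and rose 1.69-fold in the posterior part, from 1.05, 1.41 and 1.33 to 2.05, 1.91 and 2.43 CPM. Of 7 tested markers of pituitary and olfactory placode tissue, Pitx1 and Emx2 were among those with negative differences, with Pitx1 at 185, 232 and 274 CPM in con_AP and 161, 131 and 125 in TAM_AP against 109, 85.5 and 117 in con_PP and 101, 110.2 and 101 in TAM_PP. The difference of Pitx1 was -0.73, and -0.32 with the trend removed. How much tooth-forming tissue each library held was not tested.

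Genes of cholesterol synthesis and uptake lay mostly on the positive side. Cells switch these genes on together, through the transcription factor SREBP2, when sterol in their membranes is low. Of 25 tested members, 10 had a positive and 0 a negative difference at an unadjusted p under 0.05, 20 lay above 0, and the median was 0.23 against -0.0094 over all genes. With the length and GC trend removed 17 were positive and 0 negative (median 0.26). In the anterior part 14 of the 25 rose and 4 fell, and in the posterior part 7 rose and 2 fell. No member was called for the difference by edgeR, and DESeq2 called 3.

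The kinases and the decarboxylase that act on mevalonate and its products were not among the genes that rose: Mvk and Pmvk, 2 kinases, fell in both parts, by 0.48 and 0.36 on the log2 scale in the anterior part, and Mvd had no call. From isopentenyl diphosphate onward several genes rose. Idi1, which makes the isoprenoid building blocks, went from 13.9, 16.4 and 14.5 to 24.5, 29.3 and 27.2 CPM in the anterior and from 13.6, 17.7 and 16.8 to 23.7, 20.3 and 18.9 CPM in the posterior part. It rose 1.80-fold and 1.31-fold, and squalene epoxidase Sqle 1.49-fold and 1.20-fold. Lanosterol synthase Lss went from 43.7, 47.3 and 48.9 to 74.5, 70.6 and 67.3 CPM in the anterior part, a called rise of 1.52-fold, and from 45.7, 52.7 and 53.3 to 57.4, 51.7 and 59.1 CPM in the posterior part, which overlapped. Its difference was 0.45 (SE 0.12), and 0.29 with the trend removed.

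Of the enzymes that turn lanosterol into cholesterol, Cyp51 rose 1.502-fold in the anterior part (difference 0.36), Hsd17b7 rose 1.80-fold and 1.27-fold (difference 0.50), and Sc5d rose in both parts (difference 0.33, and 0.19 with the trend removed). Ebp, the sterol isomerase and a binding protein of tamoxifen, fell by 0.42 on the log2 scale in the anterior part and had a difference of -0.29 at an unadjusted p of 0.091. The sterol sensor Insig1 rose 1.43-fold in the anterior part and had no call in the posterior part. Hmgcs1, an early enzyme of the pathway, is listed at 0 in all 12 libraries and has no value here.

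**Figure D4:**
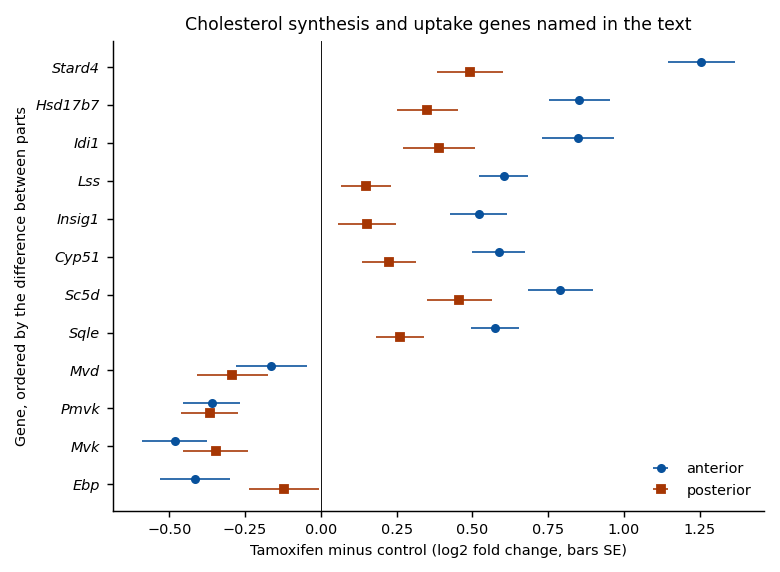
Log2 fold change under tamoxifen (x axis, with SE bars) of the genes of cholesterol synthesis and uptake that are named in the text (12 of 25 tested) in the anterior part (circles) and the posterior part (squares), ordered from the most positive difference at the top. The anterior value lies right of the posterior one in 10 of the 12.

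Genes of fatty acid synthesis and storage, which SREBP factors also control, had 5 positive and 0 negative differences among 18, with a median of 0.14 (7 and 0 with the trend removed). Scd1, the desaturase that makes oleate, rose 1.88-fold from 37.6, 40.1 and 42.1 to 83.5, 72.6 and 69.7 CPM in the anterior and 1.29-fold from 38.3, 47.8 and 49.1 to 65.4, 55.5 and 52.9 CPM in the posterior part, a difference of 0.55 (SE 0.15). Scd2 (0.29), acetyl-CoA carboxylase Acaca (0.34, 0.15 with the trend removed) and Gpam (0.50), which starts glycerolipid synthesis, were on the same side and rose in both parts. The count was 3 without replicate 2 of con_PP.

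Of 25 mitotic genes, 8 had a positive and 0 a negative difference (median 0.15), and of 24 DNA replication genes 1 was positive and 0 negative (median 0.08). With the trend removed 9 mitotic and 5 replication genes were positive and 0 of either list negative. Top2a, the topoisomerase of dividing cells, went from 385, 394 and 363 to 477, 547 and 493 CPM in the anterior part, a called rise of 1.33-fold, and from 383, 425 and 419.6 to 456, 437 and 402 CPM in the posterior part without a call. The proliferation marker Mki67 had a difference of 0.35 (SE 0.12), which was 0.12 with the trend removed, and the kinetochore motor Cenpe one of 0.40, which was 0.14. For Cenpf the value was 0.49 and, with the trend removed, 0.20, and for Top2a 0.33 and 0.17. Cenpf then changed by -0.14 on the log2 scale in the anterior part, without a call, and by -0.34 in the posterior part (edgeR adjusted p = 0.10 and 0.0021). The list median of the difference moved less, to 0.13. The mitotic count was 5 without replicate 3 of TAM_PP. Rrm2, the ribonucleotide reductase subunit and the positive member of the replication list, read 116, 107 and 109.9 CPM in con_AP against 124, 119.7 and 120.3 in TAM_AP, and 109.6, 116 and 119 in con_PP against 104, 106 and 103 in TAM_PP. The groups did not overlap in either part, but neither change was called.

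Axon guidance genes, whose products also steer vessels and mesenchyme, had 10 positive differences and 1 negative among 31 (median 0.17, 0.08 with the trend removed, when 10 were positive and 0 negative). In the anterior part 21 rose and 3 fell (median 0.72), and in the posterior part 20 rose and 0 fell (median 0.39). Their median transcript length was 5930.0 bases, against 3310 bases over all genes. The ephrin receptor Epha3 went from 94.7, 104 and 68.8 CPM to 255, 298 and 218 CPM in the anterior part and from 203, 261 and 220.3 CPM to 361, 351 and 369 CPM in the posterior part. That is a rise of 2.89-fold against 1.58-fold, and the difference was 0.87 (SE 0.20, 95% interval 0.45 to 1.29). The semaphorin Sema3e, already 2.71-fold higher in the anterior part of controls, rose 2.21-fold there and 1.44-fold in the posterior part, which left a 4.16-fold excess. Its difference was 0.62, and 0.39 with the trend removed. Sema3d (0.71), the netrin receptor Dcc (0.78), the Slit receptor Robo1 (0.46) and Epha4 (0.48, 0.30 with the trend removed) were also positive, each with called rises in both parts. Of 40 extracellular matrix and hyaluronan genes, 4 were positive and 0 negative: the collagen cross-linking enzyme Loxl2 (0.40), Col14a1 (0.54), tenascin Tnc (0.57) and Has2 (0.42), the enzyme that makes hyaluronan. That is 10% of the list, below the 13.2% of all genes at an unadjusted p under 0.05. The list median was 0.10, and 0.04 with the trend removed, when 5 were positive and 1 negative.

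Notch genes lay on the negative side. In this pathway a contact between cells releases the receptor's inner part, which switches on repressors of the Hes and Hey families. Of 22 tested members, 5 had a negative and 0 a positive difference at an unadjusted p under 0.05, 19 lay below 0, and the median was -0.23. With the trend removed, 2 were negative and the median was -0.07. The 5 were the targets Hey1, Heyl and Hes1 (-0.53), their relative Hes6 (-0.49, -0.15 with the trend removed) and the glycosyltransferase Rfng (-0.36). Hes1 fell from 63.4, 74.6 and 69.5 to 47.3, 41.1 and 40.0 CPM in the anterior part, and its posterior values of 65.2, 40.7 and 46.0 and 46.7, 41.5 and 47.6 CPM overlapped.

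Retinoic acid genes had 5 negative and 0 positive differences among 19 (median -0.25), but the median was -0.0017 with the trend removed, when 2 were negative and 1 positive. The count was 2 without replicate 3 of con_AP, replicate 3 of TAM_AP or replicate 2 of con_PP, and 3 without replicate 1 of TAM_AP or replicate 2 of TAM_PP. Dhrs3, the reductase that limits retinoic acid formation, fell to 0.644 of control in the anterior part, with a difference of -0.53 (SE 0.14). Aldh1a2, the main enzyme that makes retinoic acid, had 159, 157 and 181 CPM in con_AP and 106, 160.3 and 101 in TAM_AP with overlap and no call, and a difference of -0.74 (SE 0.28). BMP and TGF-beta genes had 2 positive and 6 negative differences among 44 (median -0.02), and with the trend removed 2 and 4 (median -0.05). The BMP target Id3 fell to 0.727 of control in the anterior part with a difference of -0.37, which was -0.15 with the trend removed. Its anterior change was then 0.05 on the log2 scale, without a call, and its posterior change 0.20 (edgeR adjusted p = 0.50 and 0.010). The antagonists Nog (-0.56), Chrd (-0.47) and Fst (-0.35) also had negative differences. Tgfb3, the ligand needed for palatal fusion, had no call in either part and an interval from -0.51 to 0.07. FGF genes had 2 positive and 4 negative differences among 26 (1 and 3 with the trend removed), led by the receptor Fgfr4 (-0.83), a gene of muscle precursors that fell to 0.618 of control in the anterior part. With the trend removed, the anterior change of Fgfr4 was -0.27 on the log2 scale, without a call (edgeR adjusted p = 0.20).

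The IGF and PDGF list had the highest share of its members at an unadjusted p under 0.05 among the signalling lists, 2 positive and 5 negative of 18, with a median of -0.02 (2 and 3 with the trend removed, median -0.0084). Igfbp3, a binding protein that holds IGF in the matrix, read 223, 266 and 262 CPM in con_AP and 243, 211 and 226 in TAM_AP, and rose 1.27-fold in the posterior part from 388, 371 and 381 to 460.2, 525 and 465 CPM. Its difference was -0.49 (SE 0.12). Igf1 itself rose in both parts, 1.252-fold from 104, 99.4 and 86.0 to 121, 114 and 127 CPM in the anterior and 1.56-fold from 166, 154 and 136 to 248, 263 and 200.1 CPM in the posterior part, so the larger rise was the posterior one. Its difference was -0.32, and -0.55 with the trend removed. The receptor substrates Irs1 (0.30) and Irs2 (0.34) lay on the other side.

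Skeletal muscle markers had the most negative median of all lists, -0.86 over 28 tested members (-0.74 with the trend removed). Of these, 12 had a negative and 0 a positive difference at an unadjusted p under 0.05, and 23 lay below 0. The count was 7 without replicate 1 of con_AP, which had the highest summed level of its group. In the anterior part 1 member rose and 6 fell, and in the posterior part 6 rose and 0 fell. The shares over all genes tested were 25.6% and 24% in the anterior part, and 17.3% and 11.7% in the posterior part. Myod1, the factor that commits cells to muscle, read 1.63, 0.387 and 0.539 CPM in con_AP and 0.323, 0.0448 and 0.177 in TAM_AP, against 38.5, 30.5 and 32.8 in con_PP and 48.0, 56.0 and 38.8 in TAM_PP. Embryonic myosin Myh3 read 8.45, 3.77 and 1.05 CPM in con_AP and 1.66, 0.560 and 0.555 in TAM_AP, against 249, 226 and 199 in con_PP and 280.3, 332 and 273 in TAM_PP. The anterior values are a small fraction of the posterior ones and vary several-fold among the con_AP libraries, so their differences have wide intervals, from -4.48 to -0.53 for Myh3. Desmin (Des), with steadier anterior values of 4.53, 4.42 and 4.03 CPM in con_AP and 2.79, 3.40 and 2.79 in TAM_AP, fell to 0.689 of control there, and its posterior values of 50.5, 39.2 and 44.6 and 56.9, 67.4 and 43.6 CPM gave no call. Myl4 went from 2.53, 2.15 and 2.93 to 1.45, 1.32 and 2.11 CPM in the anterior and from 30.1, 27.6 and 27.9 to 43.0, 46.0 and 31.9 CPM in the posterior part, where the groups did not overlap. Tnnc1 went from 2.23, 1.04 and 1.03 to 0.566, 0.649 and 0.621 CPM and from 43.2, 36.4 and 35.05 to 53.4, 51.8 and 41.0 CPM, with overlap in the posterior part. Trim72 read 0.743, 0.7496 and 1.03 CPM in con_AP, 0.189, 0.425 and 0.200 in TAM_AP, 5.30, 5.59 and 6.30 in con_PP and 6.74, 9.16 and 6.60 in TAM_PP, and Fndc5 8.97, 8.15 and 8.85, 6.82, 5.04 and 6.499, 28.5, 25.1 and 25.4 and 33.7, 36.2 and 28.4 CPM in the same order of groups. How much muscle each dissected piece held was not tested.

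Markers of vessel walls and of glia also lay on the negative side. Of 11 smooth muscle and pericyte markers 4 were negative and 0 positive (median -0.40, -0.58 with the trend removed). Acta2 had 33.2, 39.4 and 40.3 CPM in con_AP and 26.5, 20.3 and 33.7 in TAM_AP, which overlapped, and 113, 108 and 118 in con_PP and 163, 176 and 128 in TAM_PP, which did not. It was called lower in the anterior and higher in the posterior part, a difference of -0.95 (SE 0.22), and it is also expressed by embryonic muscle. Rgs5, a pericyte marker, rose in both parts, 1.32-fold and 2.05-fold, and the potassium channel gene Kcnj8 rose 2.57-fold in the posterior part alone, from 1.56, 1.29 and 0.974 to 4.57, 2.62 and 2.61 CPM. Their differences were -0.63 (SE 0.22) and -1.12 (SE 0.34). Of 11 Schwann cell and neural crest glia markers 4 were negative and 0 positive (median -0.41, and -0.25 with 3 negative when the trend was removed), led by Sox10, whose difference of -0.52 was -0.21 with the trend removed. Endothelial markers had 5 negative of 17 (median -0.17, -0.0044 with the trend removed), led by Plvap (-0.58, -0.27 with the trend removed), and the count was 3 with the trend removed, without replicate 2 or 3 of con_AP, or without replicate 2 of con_PP. Summed endothelial levels were 877 to 994 CPM in con_AP, 858 to 955 in TAM_AP, 911 to 991 in con_PP and 973 to 1054 in TAM_PP.

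Among the other cell type lists, epithelial and periderm markers had 3 negative of 29 (10.3%, against 13.2% over all genes). Their median was -0.15, and -0.06 with 2 negative when the trend was removed. The 3 were the desmosome gene Pkp1 (-0.86, SE 0.23), which had the smallest p, and the basal keratins Krt5 (-0.90) and Krt14 (-0.44). Cartilage and bone markers had 3 positive of 23, led by Col11a1 (0.39, 0.20 with the trend removed), but 0 with the trend removed. Macrophage markers had 1 positive of 17 (Mrc1, 0.49, 0.32 with the trend removed) and 0 with the trend removed, neuron markers 1 negative of 20 and erythroid markers 0 of 9. Neural progenitor markers had 1 positive and 2 negative of 11 (27.3%, against 13.2% over all genes; median 0.0028), and with the trend removed 2 positive and 0 negative (median 0.32). The positive one was Pax6, a homeobox gene of eye and brain, which stood at 1.51 to 1.80 CPM in con_AP and 1.16 to 1.996 CPM in TAM_AP. In the posterior part it read 0.0841, 0.334 and 0.0622 CPM in con_PP and 0.0391, 0.0425 and 0 CPM in TAM_PP, a called fall (edgeR adjusted p = 0.039) at very low counts. Its difference was 2.36 (SE 1.03, 95% interval 0.18 to 4.55, edgeR adjusted p = 0.31).

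The receptors through which tamoxifen is known to act were scarce in the tissue. Esr1, the main oestrogen receptor, was at 0 to 0.290 CPM in con_AP and at 0.155 to 0.189, 0.0829 to 0.252 and 0.134 to 0.195 CPM in TAM_AP, con_PP and TAM_PP, too few counts to be tested. Esr2 had a difference of 0.70 with an interval from -0.80 to 2.199, and the progesterone receptor gene Pgr, an oestrogen target, one of -1.33 with an interval from -2.75 to 0.09, so that no direction is given for either. Greb1, another oestrogen target, rose 1.34-fold in the anterior part, from 20.5, 22.9 and 20.9 to 26.9, 32.7 and 26.4 CPM, and in the posterior part went from 13.3, 14.9 and 15.4 to 15.8, 19.3 and 18.5 CPM (edgeR adjusted p = 0.051). Its difference of 0.12 (0.05 with the trend removed) had an interval from -0.20 to 0.44. Of 22 tested genes of oestrogen receptors and response, 3 were positive (Nrip1, Ncoa2 and Ncor1, which encode receptor cofactors, at 0.64, 0.29 and 0.24) and 1 negative (Ltf, -3.47, at no more than 0.539 CPM in any library), with a list median of -0.12. With the trend removed 0 were positive and 2 negative, and the median was -0.0095, so no direction is given for the list. Among 21 xenobiotic response genes 2 were positive and 1 negative (3 and 0 with the trend removed). Ahr, the aryl hydrocarbon receptor, rose 2.09-fold from 34.3, 31.2 and 26.3 to 66.2, 54.1 and 72.0 CPM in the anterior and 1.46-fold from 46.5, 53.8 and 45.5 to 66.7, 70.7 and 75.4 CPM in the posterior part, a difference of 0.52 (SE 0.16, 95% interval 0.19 to 0.85).

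Most ribosomal protein and oxidative phosphorylation genes fell in both parts. Their median transcript lengths were 1124 and 1591 bases, against 3310 bases over all genes. Falls within a part were not counted over these lists with the trend removed. Of 38 cytosolic ribosomal protein genes, 30 fell in the anterior and 25 in the posterior part, and 0 had a difference at an unadjusted p under 0.05 (median -0.08), against 3 positive with the trend removed (median 0.01). Rpl32 had the smallest p, with 797, 754 and 962 CPM in con_AP and 601, 547 and 592 in TAM_AP against 725, 692 and 712 in con_PP and 569, 564 and 573 in TAM_PP, and a difference of -0.21 (95% interval -0.46 to 0.04), which was -0.06 with the trend removed. Of 30 genes of oxidative phosphorylation subunits, 23 fell in the anterior and 17 in the posterior part, and only Ndufs7 (-0.44, -0.11 with the trend removed) had a difference at that level, against 3 positive and 0 negative genes with the trend removed. Rpl32 then fell in the anterior part only (-0.16 on the log2 scale, edgeR adjusted p = 0.041). Ndufs7 then had no call in either part (edgeR adjusted p = 0.23 and 0.80). Of 23 immediate early genes 3 were called in the anterior and 1 in the posterior part, against 49.7% and 29% of all genes tested. Their median fold changes were nevertheless -0.39 and -0.51 on the log2 scale, and their summed level spread over 1556 to 3131 CPM within con_PP. For the difference these genes had 0 of 23 at an unadjusted p under 0.05. Their leading member Klf2 (-0.82, -0.45 with the trend removed) had an interval from -1.97 to 0.33. Hypoxia and glycolysis genes had 1 negative of 27 (Hk1, -0.28, -0.15 with the trend removed), p53 targets and apoptosis genes 1 positive and 1 negative of 22 (Cdkn1a, -0.67, which fell to 0.764 of control in the anterior part), and stress response genes 2 positive and 1 negative of 27 (4 and 1 with the trend removed), led by Atf6 (0.32, 0.12 with the trend removed). With the trend removed, the log2 fold change of Cdkn1a was -0.03 in the anterior part, without a call, and 0.48 in the posterior part (edgeR adjusted p = 0.87 and 0.0077). Of 23 interferon response genes 3 were called in the anterior and 4 in the posterior part, against 49.7% and 29% of all genes tested. For the difference they had 1 positive (Ifit2, 0.46) and 1 negative of 23, with a summed level of 174 to 298 CPM in TAM_AP and 198 to 329 CPM in TAM_PP, where 1 library of each group stood above the other 2. Imprinted genes had 2 positive and 4 negative of 23 (26.1%, against 13.2% over all genes), and 3 and 4 with the trend removed. Meg3, a maternally expressed long non-coding RNA, fell from 543, 442 and 415 to 209, 205 and 202 CPM in the anterior and from 763, 594 and 748 to 445, 447 and 465 CPM in the posterior part, a difference of -0.55 (SE 0.14). Only 3 of 14 Hox genes had enough counts to be tested, with a summed level of the list of no more than 1.43 CPM in any library. Hoxd4, with the smallest p of the 3, had an interval from -1.23 to 2.204.

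**Figure D5:**
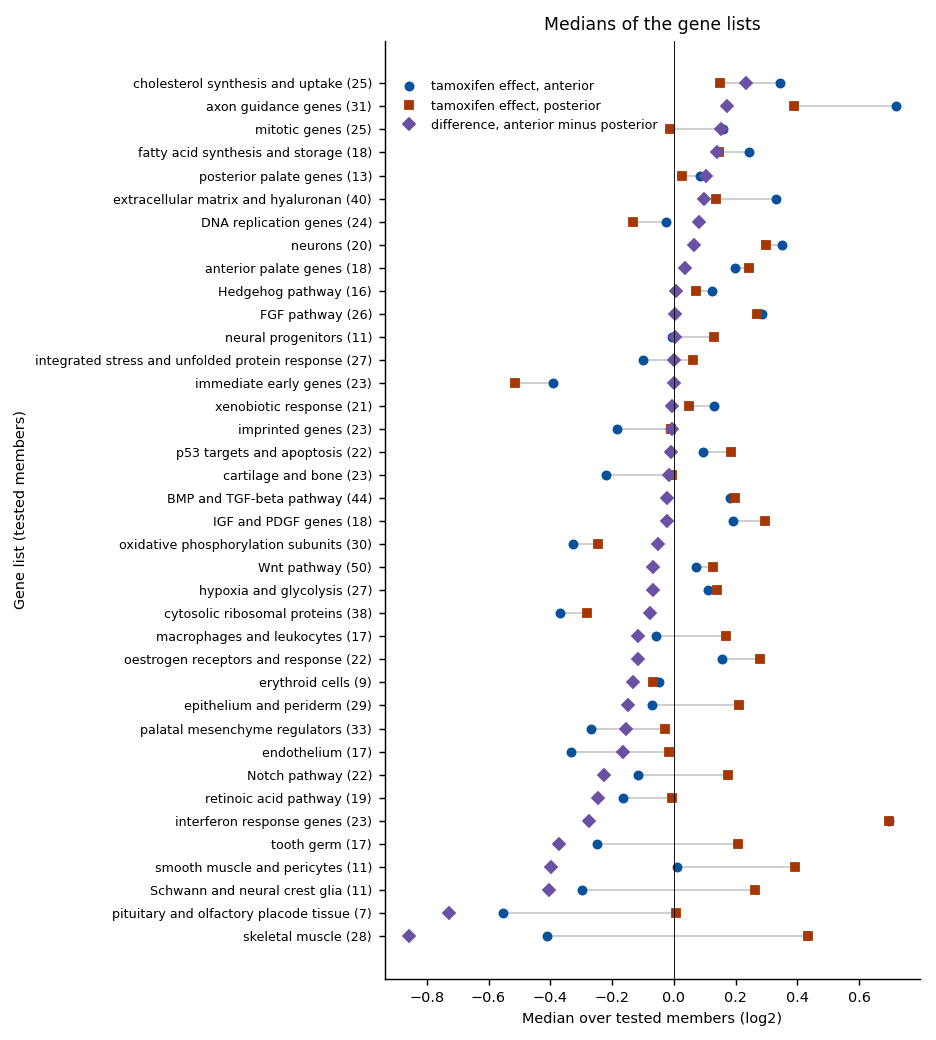
Medians over the tested members of each gene list with at least 5 of them, which leaves out the 3 Hox genes (member number in brackets; x axis, log2) of the tamoxifen effect in the anterior part (circles), in the posterior part (squares) and of the difference (diamonds), ordered by the difference. Of the lists drawn, cholesterol genes stand at the top with 0.23, skeletal muscle markers at the bottom with -0.86, and the ribosomal and oxidative phosphorylation lists have both effects well below 0 and a difference near it.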

How the data were processed

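The 12 libraries hold RNA of dissected anterior and posterior palatal shelves from C57BL/6 embryos at E13.5, 3 libraries per group. The authors deposited a raw count per gene symbol and library, for 24391 symbols, with no normalization. The submitters' processing notes name HISAT2, StringTie and mm9. The read counter, use of strand, annotation and versions were not given in the sources used here, so overlapping or antisense genes and close copies may share counts. Between 57.1 and 60.1% of the counts from 1 to 100 in a library were even, and the cause was not tested. Every pair of replicates differed beyond sampling noise (chi-square of at least 10.5 per degree of freedom), so each library counted once. This does not show whether replicates came from separate embryos.

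In R 4.3.3 with edgeR 4.0.16, filterByExpr left 15958 genes. TMM scaling and a robust quasi-likelihood model of the 4 groups (8 residual degrees of freedom) followed, with Benjamini-Hochberg adjustment over all tested genes. Standard errors are Wald errors, and 35 genes, Mstn among them, have none. The alternatives were DESeq2 1.42.0, limma 3.58.1 (voom), other scalings, low count filters and thresholds, a replicate block, counts divided by 2, an Xist to Y-linked covariate, each library left out, and removal of a length and GC trend. For that trend, natural splines (4 degrees of freedom for each property) were fitted in each library to genes whose log2 CPM averaged over 1. Both properties were those of a gene's longest transcript in GENCODE M21. A direct match was found for 23348 symbols and an older name for 678, so 15849 tested genes had both properties. That annotation has a newer build than the files, so no coordinates are given. The scripts were tested on simulated data.

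Named genes were the 20 with the smallest p and a mean of at least 5 CPM in a group, the member of each list with the smallest p, and a fixed set of oestrogen, palate, Hedgehog and cholesterol genes. The genes, the lists and these rules were chosen with earlier results of these data known. Results for some genes are not reported here.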

Additional observations from a re-analysis of the deposited data

How the results depend on the processing

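The edgeR count of 0 genes called for the difference became 179 with the DESeq2 Wald test, 96 positive and 83 negative and 18 of them called in opposite directions in the parts, and 8 at an adjusted p under 0.10 (1 positive, 7 negative and 5 in opposite directions; added after the data were seen). It became 1 with the length and GC trend removed together with the replicate number as a block (Meg3, negative, edgeR adjusted p = 0.024) and 1 with the Xist to Y-linked covariate (Foxc2, negative, edgeR adjusted p = 0.040); the cause was not tested. Leaving out each library gave 0 to 6 genes, 0 of them positive, 0 to 6 negative and 0 to 4 in opposite directions, and unadjusted counts of 697 to 1711 positive and 573 to 1087 negative genes. The fit with the replicate block alone called 0 genes, with 1181 positive and 1000 negative at an unadjusted p under 0.05. Of 18 pairs of libraries with the same number 7 deviated together with a correlation over 0.1 (range -0.16 to 0.30). These pairs include control with tamoxifen libraries, and the block gives each number a single effect over all 4 groups. Same-number pairs of the parts within a treatment ranged from -0.13 to 0.30. Neither the pairs nor the block can decide whether such parts came from the same embryos. The numbers were not taken to pair the samples. The other scalings, limma-voom, both other low count filters, the stricter threshold of 0.01, counts divided by 2, removal of the trend alone, and the fit without the robust option (added after the data were seen) also called 0 genes.

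For the difference of 117 named genes with a fit, 3131 of 3147 alternative values kept their direction and 16 did not. Shh, estimated near 0, was negative with upper quartile scaling (-0.0097), library totals (-0.0073) and the Xist to Y-linked covariate (-0.024), and lay between -0.14 and 0.20 over the fits without 1 library. Barx1 was positive with the trend removed (0.088) and with the block added (0.080). Tbx22 was negative with both (-0.012). Over the fits without 1 library Tbx22 ranged from -0.067 (without replicate 2 of TAM_AP) to 0.48, Hoxd4 from -0.23 (without replicate 1 of TAM_AP) to 0.77, and Mn1 from -0.020 (without replicate 1 of TAM_PP) to 0.18. Genes of a few CPM, such as Trim72 and Tnnc1 in the anterior part, are limited by counting depth.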

Other observations

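The letters TCACNCCAC, a form of the element that sterol-regulated transcription factors bind, were searched on both strands in the promoters of the genes of cholesterol synthesis and uptake (250 bases before to 50 after the start, from RefSeq on GRCm38). A promoter was found for 17 of the 25 tested genes, and 0 of these 17 genes held the letters, against 175 of 11879 tested genes with a promoter (1.47%). No other motif was tried, and the absence of these letters from this window says nothing about binding of the factor.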
